A study of Mus musculus with 6 samples.

Results

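The genes described here are 10 components of bone morphogenetic protein (BMP) signalling: the ligands Bmp2, Bmp4 and Bmp6, the receptors Bmpr1a, Bmpr2 and Acvrl1, the inhibitory SMAD Smad6, and the inhibitor of DNA binding genes Id1, Id2 and Id3. They were taken by symbol from an array annotation that names 18193 genes, and they are measured by 20 of its 45037 probe sets. All 10 genes passed a filter on low signal, through 16 of the 20 probe sets. Mesenteric arteries, the vessels that feed the gut, were taken at 7 weeks of age from 6 mice of a mixed background that includes FVB, SVJ129 and C57BL/6. Both groups carried loxP-flanked beta1 integrin alleles, and both were given tamoxifen, 1 mg a day for 14 days starting at 5 weeks. The 3 controls (animals 30, 74 and 75) had no Cre, while the 3 knockouts (animals 72, 73 and 86) also carried sm22alphaCRE, a recombinase driven by the promoter of the smooth muscle gene Tagln. The presence of Cre and the loss of beta1 integrin therefore cannot be told apart in this design. The title of knockout 86 carries the letter F and those of the other 5 the letter M, so values without knockout 86 are also those of the M-labelled animals alone.

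BMPs are secreted relatives of TGF-beta that bind pairs of type I receptors, such as Bmpr1a and Acvrl1, and type II receptors, such as Bmpr2. The activated receptors phosphorylate a group of SMAD proteins that enter the nucleus with Smad4 and switch on targets, among them the Id genes and the feedback inhibitor Smad6. ID proteins have a helix-loop-helix but no DNA-binding region, and they hold E proteins and other basic helix-loop-helix factors away from DNA. In arteries, endothelial cells depend on Acvrl1 and Bmpr2, whose inherited mutations underlie hereditary haemorrhagic telangiectasia and heritable pulmonary arterial hypertension.

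The targeted gene Itgb1 had intensities of 3487, 2203 and 2290.0 in the controls and of 1468, 1487 and 1795 in the knockouts, which left 60.1% of the control level in whole arteries (difference -0.73, SE 0.22, limma adjusted p = 0.127). The level did not overlap between groups. Smooth muscle markers were present on every array, with a summed intensity of 60224 to 72802 over 8 genes in controls and 49560.2 to 63285 in knockouts. The lists of lymphocyte, mesothelial and enteric epithelial markers had 0 genes above the filter. Summed over 5 such dim genes, the lymphocyte markers gave 70.8 to 120 in controls. They gave 371 in knockout 73 and 95.4 and 77 in knockouts 72 and 86. Median intensity was 68.13, 62.75 and 66.16 in the controls and 72.6, 69.15 and 70.05 in the knockouts, so every knockout lay above every control. The summed intensities given here and below are of deposited values, before normalization. The labels describe each array as a separate mouse and give no batch. A limma p-value below sets the difference between groups against the spread among mice of the same group. That spread is estimated in part from all genes or probe sets in the fit. An exact permutation p-value is the share of ways to sort the 6 arrays into groups that give a difference at least as large.

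The start regions of 4 of the genes, those of the ID genes with the largest and the smallest difference and those of the ligand and the inhibitor with the smallest p-values, show what the promoter table holds for them. Each runs 5′ to 3′ from 250 bases before the annotated start of transcription to 10 bases after it (RefSeq, GRCm38.p6). Capitals mark matches, on either strand, to GGCGCC (a core of GC-rich BMP response elements), GTCTAGAC (the palindromic SMAD site) or CAGAC (a single SMAD site).
Id2, minus strand, chr12:25096083-25096342: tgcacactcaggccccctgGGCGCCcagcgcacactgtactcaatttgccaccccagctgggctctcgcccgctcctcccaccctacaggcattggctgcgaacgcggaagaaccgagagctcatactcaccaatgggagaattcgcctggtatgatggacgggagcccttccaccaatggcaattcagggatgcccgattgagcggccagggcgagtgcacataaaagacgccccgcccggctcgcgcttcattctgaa
Id3, plus strand, chr4:136143572-136143831: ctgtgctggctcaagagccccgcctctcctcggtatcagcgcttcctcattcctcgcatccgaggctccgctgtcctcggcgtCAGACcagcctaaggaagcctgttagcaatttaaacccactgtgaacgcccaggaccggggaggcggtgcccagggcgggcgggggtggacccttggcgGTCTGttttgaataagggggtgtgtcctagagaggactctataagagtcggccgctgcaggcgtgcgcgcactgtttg
Smad6, minus strand, chr9:64022050-64022309: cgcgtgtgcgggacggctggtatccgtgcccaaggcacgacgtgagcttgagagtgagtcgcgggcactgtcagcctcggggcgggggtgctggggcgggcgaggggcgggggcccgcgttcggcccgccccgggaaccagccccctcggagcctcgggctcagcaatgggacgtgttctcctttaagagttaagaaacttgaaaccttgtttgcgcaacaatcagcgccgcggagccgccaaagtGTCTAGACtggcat
Bmp6, plus strand, chr13:38345466-38345725: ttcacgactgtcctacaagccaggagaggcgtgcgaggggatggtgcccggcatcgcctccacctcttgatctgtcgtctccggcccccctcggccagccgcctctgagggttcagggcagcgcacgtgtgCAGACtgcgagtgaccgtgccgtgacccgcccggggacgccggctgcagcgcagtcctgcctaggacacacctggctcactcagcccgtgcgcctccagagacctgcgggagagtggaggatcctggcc

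Id2 held 1 GGCGCC, beginning 231 bases before the start, and Id3 held 2 single SMAD sites, beginning 167 and 68 bases before it. In Smad6 the SMAD palindrome lay across the start, from 4 bases before it. Over windows of 300 bases, which run on to 50 bases after the start, GTCTAGAC was present in 70 of 32851 annotated starts (0.213%), GGCGCC in 11.9% and CAGAC in 49.6%. Bmp6 held 1 single SMAD site, beginning 119 bases before its start. Among the other windows, Bmpr1a and Bmpr2 each held 1 GGCGCC and Bmp4 held no match to these letters. Windows for Bmp2, Acvrl1 and Id1 were not analysed here. A match describes the letters and is no measurement of binding.

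In knockout arteries the transcripts of 9 of the 10 genes had a lower mean signal and that of Bmp2 a higher one. Bmp6 fell to 46.3% of the control level and passed the threshold of a limma adjusted p under 0.05 over all 10654 genes tested. Id2, Bmp4, Smad6 and Id1 stood at 45.6%, 49.2%, 65.5% and 70.6% of control, did not overlap between groups and did not pass that threshold. Bmpr1a, Bmpr2, Acvrl1 and Id3 overlapped between groups. Thus 1 of 10 genes was called, where 2.42% of all genes were called and 0.657% were called as lower. The groups did not overlap in 5 genes that were lower and 1 that was higher, against 15.1% and 13.0% of all genes, and 6 had an unadjusted p under 0.05, against 21.4%. At an adjusted p under 0.1, the 4 genes Bmp6, Smad6, Id2 and Id1 passed, against 6.16% of all genes. The median difference was -0.52 on the log2 scale, against -0.05 over all genes tested, of which 56.9% were lower in the knockout. The 10 genes were chosen with results of these data known, so these counts describe them and test nothing about the set.

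**Figure D1:**
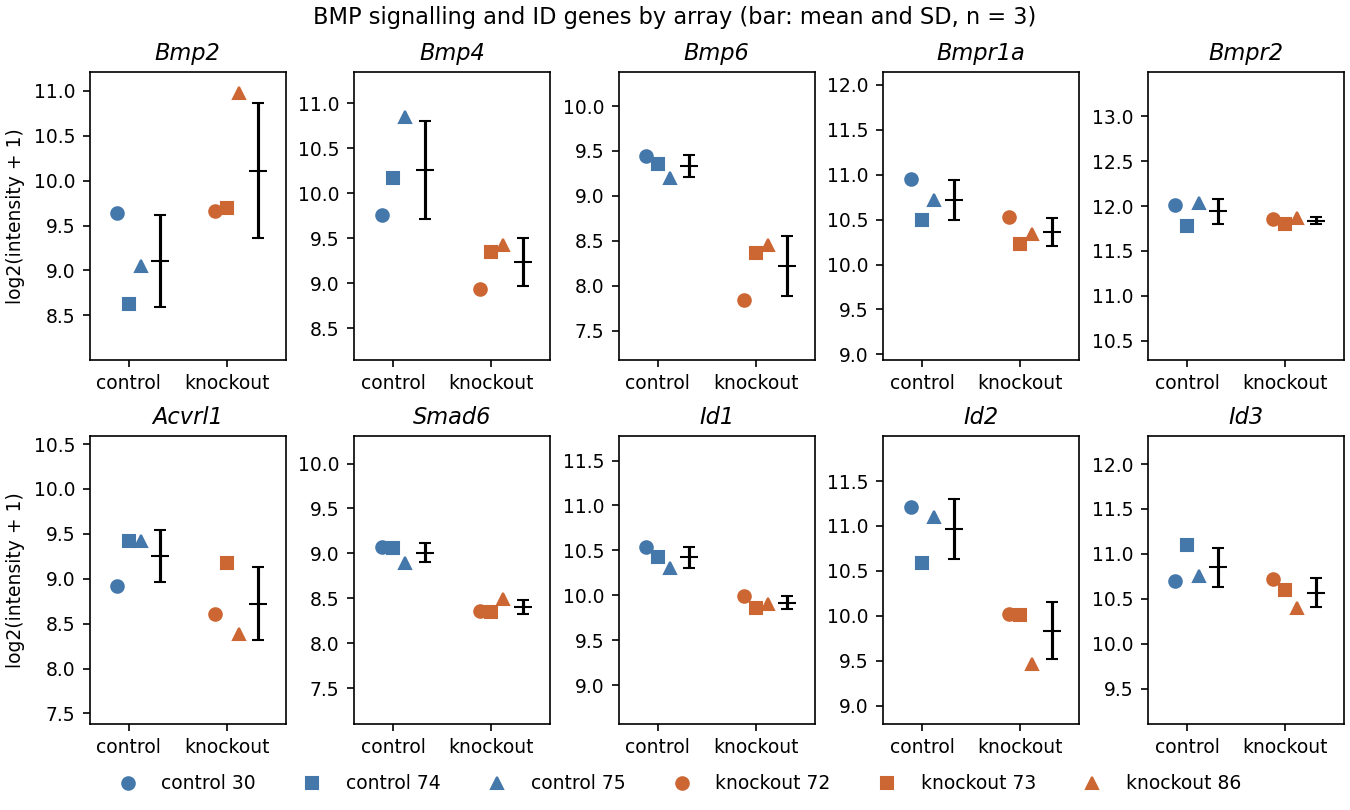
Each panel plots log2(intensity + 1), after quantile normalization, for 1 gene on the 6 arrays, with control animals in blue, knockout animals in orange and the mean and SD of 3 arrays in black. Panels differ in their level but all span the same range of log2 units. Knockout points lie below all control points for Bmp4, Bmp6, Smad6, Id1 and Id2, and above them for Bmp2, where knockout 86 stands apart at 10.98.

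Among the ligands, Bmp6, a BMP that endothelial cells secrete, had deposited intensities of 685, 649 and 572 in the controls and of 238, 330.3 and 358 in the knockouts. The highest knockout value was thus well under the lowest control value. On the log2 scale the means were 9.33 ± 0.12 (SD, n = 3) and 8.22 ± 0.33 (SD, n = 3), and the difference was -1.11 (SE 0.19, limma adjusted p = 0.036, exact permutation p = 0.1, the smallest that 3 arrays against 3 allow). The 95% confidence interval of the knockout level was 34.0% to 63.0% of control. The call was lost whichever array was left out (limma adjusted p between 0.065 and 0.104), and with no filter (limma adjusted p = 0.0856), while the difference stayed between -1.22 and -0.93 in the fits of 5 arrays.

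Bmp4, a ligand made in the vessel wall, stood at 853, 1154 and 1793 in the controls and at 499.9, 648 and 711 in the knockouts. All knockouts were lower, but the controls differed among themselves about as much as the groups did, with control 75 the highest. The difference was -1.02 (SE 0.29, limma adjusted p = 0.118, exact permutation p = 0.1). Without control 75 it was -0.73 (limma adjusted p = 0.217).

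Bmp2, a ligand best known for inducing bone and cartilage, ran the other way. Its intensities were 784, 386 and 516 in the controls and 813, 824 and 2069 in the knockouts. Knockouts 72 and 73 lay just above control 30, and only knockout 86 lay far above it. The difference was 1.01 (SE 0.41, limma adjusted p = 0.224, exact permutation p = 0.1), and without knockout 86, in M-labelled animals only, it was 0.57 (limma adjusted p = 0.461).

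Within an array, the log2 ratio of Bmp2 to Bmp6 was -0.23 ± 0.47 (SD, n = 3) in controls and 1.89 ± 0.60 (SD, n = 3) in knockouts. That of Bmp2 to Bmp4 moved from -1.15 ± 0.90 to 0.87 ± 0.62 (SD, n = 3 each), and neither ratio overlapped between the groups (exact permutation p = 0.1 for each, 0.15 after Benjamini-Hochberg adjustment over 6 ratios). The ratio of Bmp6 to Bmp4 overlapped (difference -0.09, exact permutation p = 0.8, adjusted 0.8). These ratios show how unequally the signals of 2 genes changed and not their relative amounts.

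The estimated differences of the ID genes were -1.13 for Id2, -0.50 for Id1 and -0.28 for Id3. Id2 was read by 3 probe sets. The brightest gave 2304, 1567 and 2146 in the controls and 1050.4, 1020.2 and 732 in the knockouts, a difference of -1.13 (SE 0.23, limma adjusted p = 0.0586, exact permutation p = 0.1). The next gave 1310.2, 1198 and 1372 against 567, 612 and 413. In a fit over all 17473 named probe sets above the filter it fell by 1.34 on the log2 scale, to 39.5% of control (SE 0.19, limma adjusted p = 0.0293), where 1.51% of probe sets were called and 0.298% were called as lower. The third lay below the filter and gave 89.7, 67.3 and 116 against 69.2, 42.3 and 51.1. Groups did not overlap in any of the 3 probe sets on the normalized scale, and knockout 86 was the lowest of the arrays in the brighter 2. The called probe set did not pass without a filter (limma adjusted p = 0.0704), where 0.572% of probe sets were called.

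Id1, a standard readout of SMAD activity in endothelium, stood at 1461, 1390 and 1220 in the controls and at 1027, 919 and 988 in the knockouts. Every knockout lay below every control and the values within each group lay close together. The difference was -0.50 (SE 0.12, limma adjusted p = 0.091, exact permutation p = 0.1), which is 70.6% of control (95% confidence interval 57.6% to 86.5%).

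Id3 gave 1629, 2307 and 1679 in the controls and 1686, 1521 and 1401 in the knockouts. On this deposited scale knockout 72 lay above 2 of the controls, and control 74 alone was high. The difference was -0.28 (SE 0.16, limma adjusted p = 0.354), and its 95% confidence interval reached from 63.2% to 107% of control.

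The log2 ratio of Id2 to Id3 within an array was 0.11 ± 0.55 (SD, n = 3) in controls and -0.74 ± 0.18 (SD, n = 3) in knockouts, and that of Id2 to Id1 moved from 0.54 ± 0.34 to -0.09 ± 0.31. In both cases the groups did not overlap, the former by a narrow margin, since control 74 stood at -0.52 and knockout 73 at -0.59. The exact permutation p was 0.1 for each, or 0.15 adjusted over the 6 ratios. The ratio of Id1 to Id3 overlapped between the groups (difference -0.22, exact permutation p = 0.2, adjusted 0.24).

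Smad6 encodes the inhibitory SMAD that blocks BMP type I receptors and is itself induced by them. It gave 531, 528 and 462 in the controls and 339, 327 and 366 in the knockouts. The 2 groups were separate and each was narrow, with SDs of 0.10 and 0.08 on the log2 scale. The difference was -0.61 (SE 0.12, limma adjusted p = 0.0557, exact permutation p = 0.1). Its size hardly moved when an array was left out, between -0.67 and -0.58, while the adjusted p rose to between 0.0803 and 0.197. Over the 6 arrays, once each gene's mean was subtracted, Smad6 and Id1 differed by a root mean square of 0.09 log2 units, the smallest distance among the 45 pairs of the 10 genes. Outside the 10 genes, Adamtsl4, Mmaa and Zmat1 lay nearer to Smad6, at 0.02, 0.04 and 0.07. Genes with a like difference between the groups come out near each other by this measure, so it does not show a shared regulation.

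None of the 3 receptors passed the limma threshold, and the groups overlapped in each; their unadjusted p-values were 0.0606 for Bmpr1a, 0.433 for Bmpr2 and 0.0671 for Acvrl1. Bmpr2, the type II receptor, gave 4067, 3731 and 4049 in the controls and 3655, 3438 and 3902 in the knockouts in its brightest probe set. Control 74 lay below knockout 86. The difference was -0.10 (SE 0.12, limma adjusted p = 0.663) with a 95% confidence interval of 75.9% to 114% of control. The dimmer of its 2 probe sets above the filter pointed upwards, at 0.42 (SE 0.48), so that the mean of both stood at 0.16 (limma adjusted p = 0.769). Its remaining probe set, below the filter, gave 46.5, 42.4 and 30.9 in the controls and 37.1, 64.4 and 62.1 in the knockouts, a difference of 0.33 (SE 0.29) with overlapping groups.

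Bmpr1a, a type I receptor found on most cells, was lower in the mean in all 6 of its probe sets. In the brightest, the controls gave 1926, 1472 and 1632 and the knockouts 1478, 1185 and 1341, so that control 74 fell within the knockout range. The difference was -0.36 (SE 0.16, limma adjusted p = 0.253). The other 3 probe sets above the filter gave differences of -0.36, -0.33 and -0.18, and 1 of these, with the suffix s, may also bind transcripts of other genes. The 2 below the filter gave -0.68 and -0.58.

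Acvrl1, the type I receptor of endothelium, differed between its 2 probe sets. The brighter gave 475, 680.0 and 666 in the controls and 399.7, 575 and 341 in the knockouts, a difference of -0.53 (SE 0.24, limma adjusted p = 0.263). The dimmer gave 249, 318 and 324 against 292, 313 and 272, a difference of -0.08 (SE 0.16). Knockout 73 lay inside the control range in both.

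**Figure D2:**
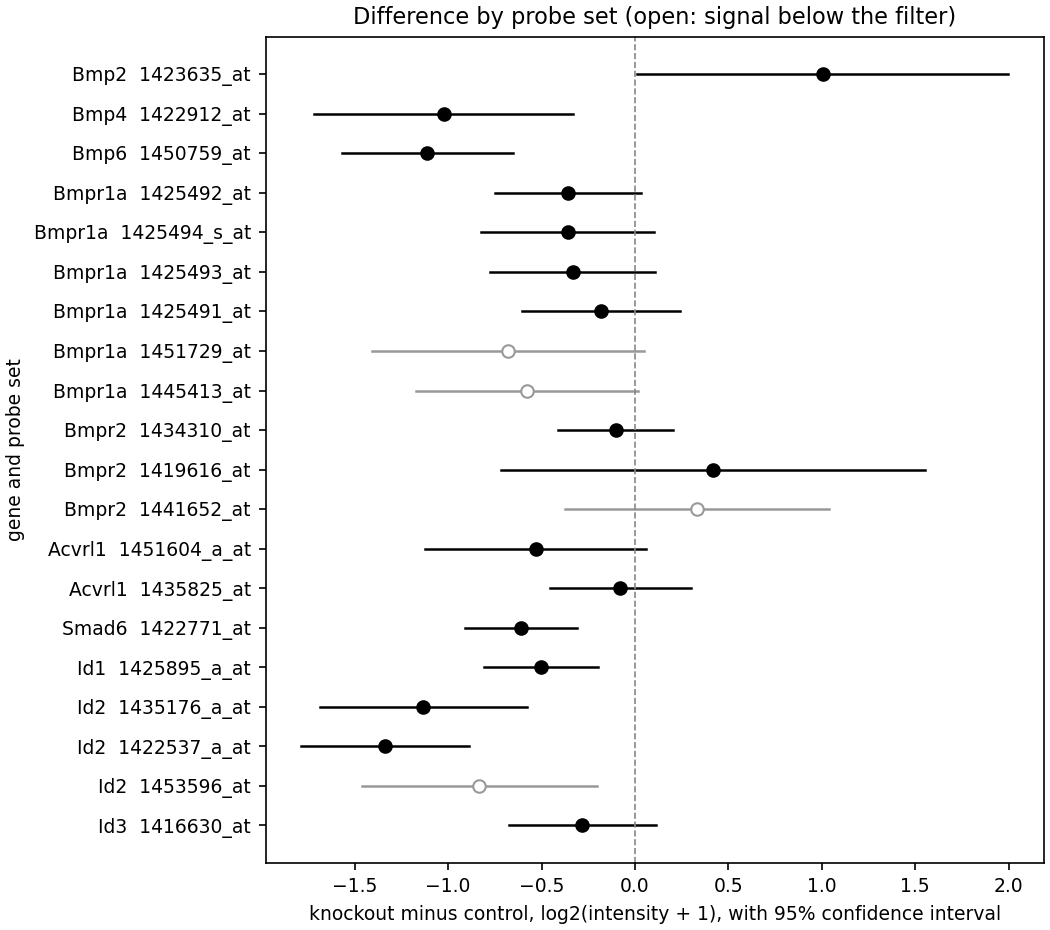
Points give the difference, knockout minus control, in log2(intensity + 1) for each of the 20 probe sets, and lines the 95% confidence interval of limma; open grey points are the 4 probe sets below the filter, fitted without a filter. The intervals of the Id2, Bmp6, Bmp4, Smad6 and Id1 probe sets lie below 0, that of Bmp2 lies just above it, and those of the receptors reach across it.

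Other genes of the pathway were taken from lists made from general knowledge. Among the 48 tested on these 7 lists, 0 passed the limma threshold, 4 had an unadjusted p under 0.05 with a higher level in the knockout (Fstl1, Bmp1, Twsg1 and Bmper) and 3 with a lower one (Acvr2b, Tcf15 and Hand2). Over all genes tested 2.42% passed, and 21.4% had an unadjusted p under 0.05, against 14.6% of these 48, so the share on the lists was not above that of all genes. The SMADs that carry the signal stayed near the median of all genes: Smad1 stood at -0.04, Smad5 at 0.00 and Smad4 at -0.15, and the second inhibitory SMAD, Smad7, at 0.08 (limma adjusted p between 0.617 and 1). In its other probe sets Smad1 stood at 0.45 (limma unadjusted p = 0.146) and -0.055 (limma unadjusted p = 0.798). The other probe sets of Smad4 stood at 0.22 and -0.0024 and that of Smad7 at -0.062. Smad9 was below the filter. The list median was -0.02 over 4 genes.

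Among ligands, 2 of 9 on the array were above the filter, Bmp5 at -0.76 (limma adjusted p = 0.245) and Gdf10 at 0.30 (limma adjusted p = 0.427). Of 7 further receptors and co-receptors, 3 were higher and 4 lower, with a median of -0.01. Acvr2b, a type II receptor, stood at -0.59, the co-receptor Tgfbr3 at -0.49 and the type I receptor Acvr1 at 0.37 (limma adjusted p = 0.162, 0.244 and 0.249). The groups did not overlap in these 3 of the 7 genes, 2 lower and 1 higher, against 15.1% and 13.0% of all genes. The 3 were named for their small p, which favours such separation. Acvr1 pointed the opposite way to Bmpr1a in the probe set read for the gene. In the other Acvr1 probe set above the filter, at 0.58, the groups overlapped, and the one below the filter stood at -0.33.

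The secreted antagonists and modulators had a median of 0.19 over 10 genes, with 5 higher and 5 lower. Fstl1, a secreted glycoprotein that binds BMP ligands, gave 6541, 6034 and 5935 in the controls and 8449.5, 7717 and 9593 in the knockouts, a difference of 0.43 (SE 0.12, limma adjusted p = 0.124). Bmp1, which despite its name is a protease that processes procollagen and cleaves the antagonist chordin, stood at 0.55 (SE 0.17, limma adjusted p = 0.145), and Twsg1, which binds BMPs together with chordin, at 0.42 (SE 0.15, limma adjusted p = 0.164). In these 3 of the 10 genes all knockouts exceeded all controls in the probe set read for the gene, against 13.0% of all genes. The 3 were named for their small p, which favours such separation. In the other probe set of Twsg1 above the filter, at 0.61, the groups overlapped. Bmper, a chordin-like BMP regulator, stood at 1.49 (SE 0.60, limma adjusted p = 0.215) with overlapping groups, from 70.9 in control 30 to 383 in control 75 and 332 to 627 in the knockouts. The antagonists Nog and Chrd were below the filter.

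Of 10 intracellular brakes, 4 were higher and 6 lower, with a median of -0.05. The corepressor Ski stood at -0.46, the ubiquitin ligase Smurf1 at -0.28 and the antiproliferative gene Tob1 at -0.46 (limma adjusted p = 0.241, 0.25 and 0.265). In Ski and Smurf1, 2 of the 10 genes, the groups did not overlap, against 15.1% of all genes in the lower direction. These genes too were named for their small p. The other probe set of Ski above the filter stood at -0.090 (unadjusted p = 0.602), with overlapping groups. A further list held 10 tested E proteins and other basic helix-loop-helix genes, not all of them partners of ID proteins, and its median was -0.04. The E proteins, which ID proteins bind, stood at 0.04 (Tcf3), -0.13 (Tcf4) and 0.21 (Tcf12). Tcf15, a factor of endothelial cells, stood at -0.85 (SE 0.22, limma adjusted p = 0.101) and Hand2 at -0.42 (limma adjusted p = 0.191). For both the groups did not overlap, as for 15.1% of all genes in the lower direction, and both were named for their small p. Tcf21 stood at 0.25 (limma adjusted p = 0.32), and its groups did not overlap either, as for 13.0% of all genes in the higher direction. It was likewise named for its small p. Its other probe set, below the filter, stood at -0.53.

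Of the targets beside the Id genes described above, 5 were tested and 0 passed. Id4, the remaining ID gene, stood at -0.36 (limma adjusted p = 0.5), Msx1 at -0.82 (limma adjusted p = 0.264) and Hey1 at 0.07 (limma adjusted p = 0.764). The other probe sets of Id4 above the filter stood at -0.67 (limma unadjusted p = 0.0794) and -0.25 (SE 0.76), with overlapping groups in each. Msx1 stood at -0.38 without control 74, the highest of all arrays, and Id4 at -0.12 without control 75 and -0.65 without control 74. Atoh8, a helix-loop-helix target of BMP receptors in endothelium, was chosen after its values were seen: its mean over all arrays lay just below the filter. It gave 212, 118 and 282 in the controls and 30.3, 31.4 and 24.0 in the knockouts. All knockouts thus lay far below the lowest control. With no filter Atoh8 fell by 2.79 on the log2 scale, to 14.5% of control (SE 0.32, limma adjusted p = 0.0229), where 0.956% of genes were called. It was the 1 call among the pathway lists in that fit. Atoh8 was tested in 4 of 15 other settings and called in 2 of them. The second call came with the filter set at the median of all probe sets, named or not (limma adjusted p = 0.00835), and the choice between this filter and the one reported was made after the results of this one were seen. Leaving out knockout 72 or knockout 86 gave a limma adjusted p of 0.0633 or 0.0555. Each of these fits dropped a low knockout, which raised the mean over arrays and let Atoh8 pass the filter. Under the filter at the median of all probe sets it passed only through the controls, since every knockout lay below that cut-off. Apart from the fit with no filter, the settings that tested Atoh8 thus followed from its own values. The counts of tests and calls are therefore no separate support.

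**Figure D3:**
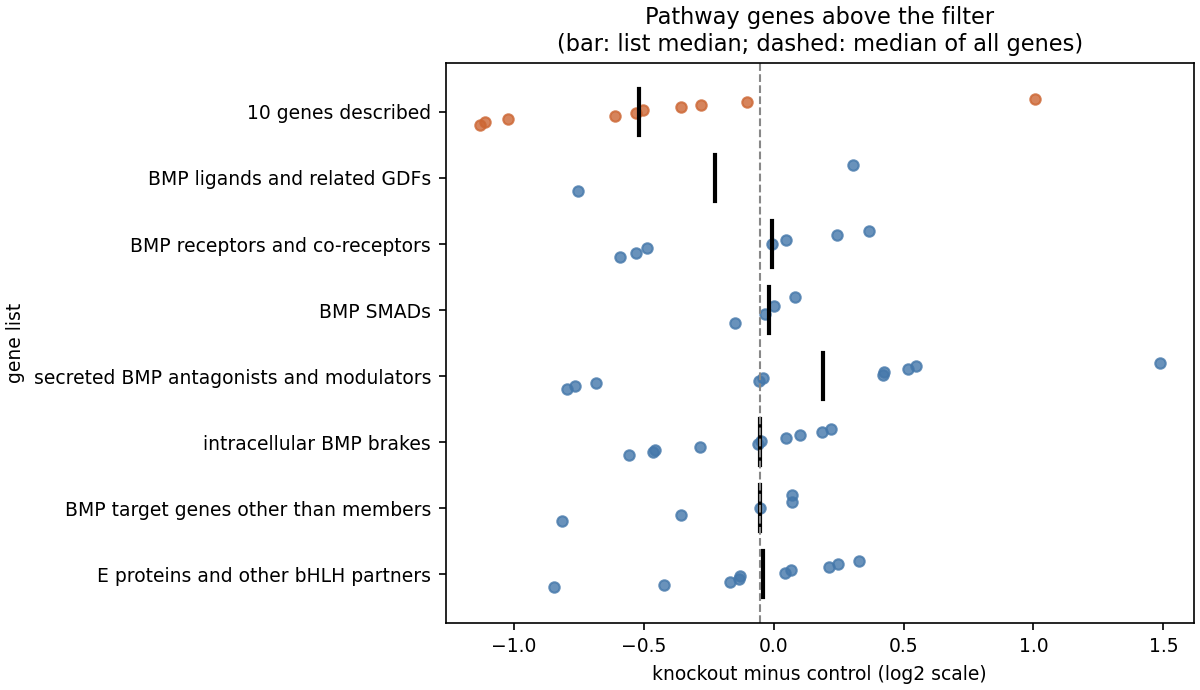
Points give the difference, knockout minus control, on the log2 scale for each gene above the filter, by list, with the 10 genes described in orange, list medians as black bars and the median of all genes tested, -0.05, as a dashed line. The medians of the SMADs, receptors, brakes and E proteins lie near the dashed line, and that of the 10 genes at -0.52.

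Some of these transcripts belong to endothelial cells in the vessel wall, and the arrays measured whole arteries, in which fewer cells of a type and less RNA per cell cannot be told apart. Of 12 endothelial markers, all above the filter, 12 were lower in the knockout and 0 passed the threshold, with a median difference of -0.57; of all genes tested 56.9% were lower. In 5 of them, Pecam1, Tek, Vwf, Cldn5 and Nos3, the groups did not overlap, against 15.1% of all genes that did not overlap and were lower. Their summed intensity was 27693, 33260.0 and 30845 in the controls and 20842, 26567 and 21064 in the knockouts. The difference of Smad6 (-0.61), that of Id1 (-0.50) and that of the brighter Acvrl1 probe set (-0.53) were near the median of these markers, while those of Id2, Bmp6 and Bmp4 were larger. A separate list of lymphatic endothelial markers did not go the same way. Of its 3 genes above the filter, 2 were higher and 1 lower in the knockout, with a median difference of 0.36. Over its 4 genes on the array, the summed intensity overlapped between groups, at 1183 to 2870 in controls and 1980 to 3059 in knockouts. The part of the endothelial share in the values of the genes described here was not tested.

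Of 8 smooth muscle markers, 8 were lower in the knockout and 0 passed the threshold, with a median difference of -0.34. The groups did not overlap in 3 of them, Myh11, Tagln and Lmod1. These counts stand beside the same shares of all genes, 56.9% lower and 15.1% lower without overlap. Sums of other marker lists differed as well. The summed intensity of 8 macrophage markers was 2601 to 4783 in controls and 6652 to 22628 in knockouts, and knockout 73 was the highest. Fibroblast markers gave 19195 to 28453 against 30452 to 32060.4, over 7 genes. Proliferation genes gave 345 to 402 against 4814 to 8549, over 7 genes, with knockout 86, the array highest in Bmp2, at the top. Immediate early genes, 9 in all, summed to 24154 in control 30, 10021 and 10054 in the other controls and 16560 to 18935 in the knockouts, so control 30 was the highest of all arrays. Bmp2 was likewise highest among controls in control 30. Schwann cell and nerve markers gave 2292 to 3295 against 1257 to 2170.0, over 5 genes. Adipocyte markers overlapped between groups, at 14260.4 to 33368 against 15471 to 22884. The part of these markers in the values of the 10 genes was not tested.

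**Figure D4:**
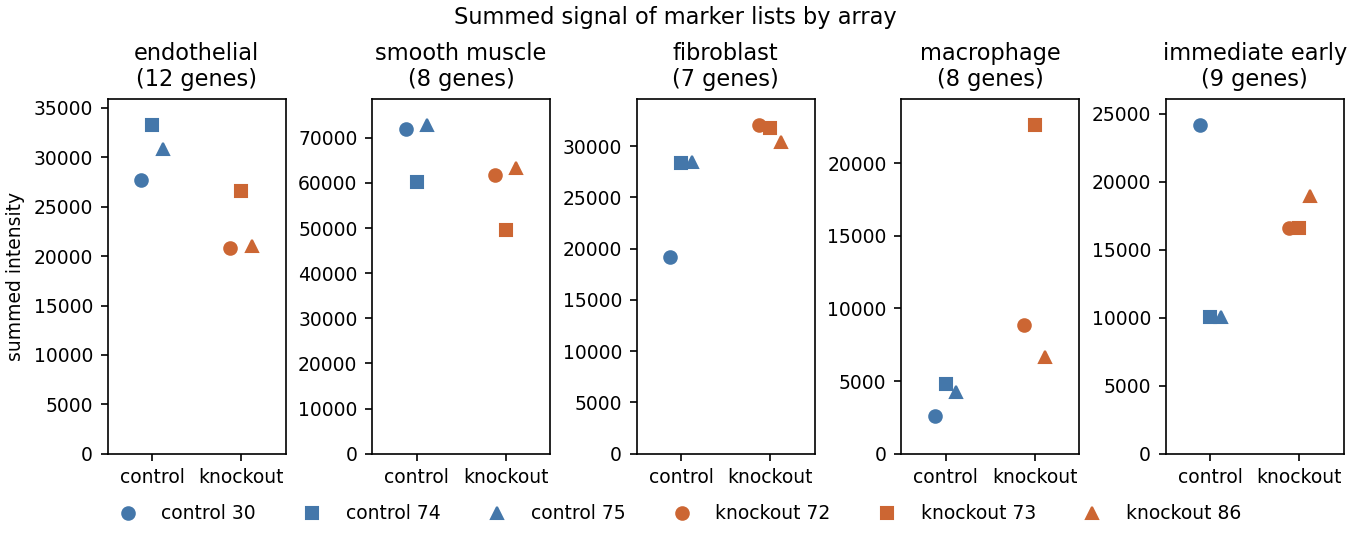
Each panel plots the summed deposited intensity of 1 marker list on the 6 arrays, with controls in blue and knockouts in orange and axes starting at 0. The endothelial sums of the knockouts, 20842 to 26567, lie below all controls, the macrophage and fibroblast sums lie above them, and the smooth muscle and immediate early sums overlap.

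The genes nearest to the 3 of smallest p were found by the root mean square difference of their log2 values over the 6 arrays, each less its own mean. Nearest to Id2 were Rgs2, a regulator of G protein signalling, at a distance of 0.09, the thromboxane receptor gene Tbxa2r at 0.13 and the endothelin receptor gene Ednrb at 0.15. Their differences were -1.10, -1.07 and -0.91 (limma adjusted p = 0.0833, 0.107 and 0.0958). Nearest to Smad6 were Adamtsl4 at 0.02, Mmaa at 0.04 and Zmat1 at 0.07. Adamtsl4 fell by 0.63 (SE 0.12, limma adjusted p = 0.0479). Nearest to Bmp6 were Myrip at 0.12, the transcript A330023F24Rik at 0.13 and Ecm2 at 0.14, of which the last 2 fell by 0.93 and 0.94 (limma adjusted p = 0.0397 and 0.0477). With 6 arrays in 2 groups, genes that differ between the groups by a like amount come out near each other by this measure.

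**Figure D5:**
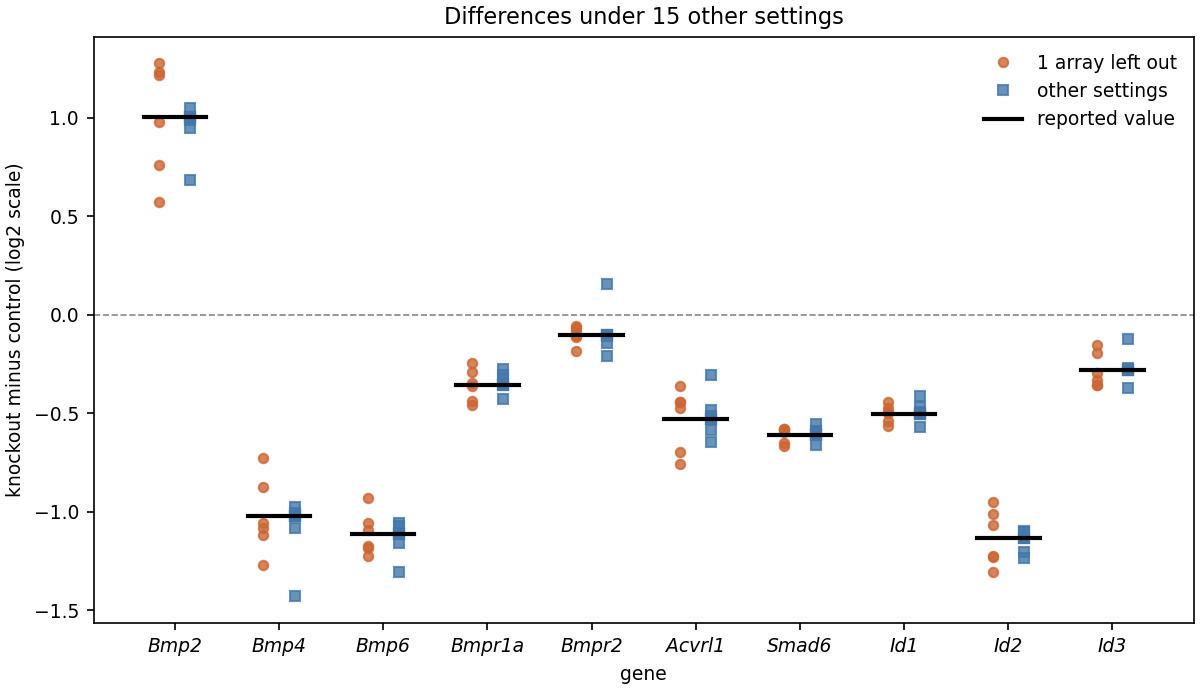
Points give the difference, knockout minus control, on the log2 scale for each of the 10 genes under 15 other settings, with orange circles for the 6 fits that leave out 1 array, blue squares for the other 9 and black bars for the reported values. Bmpr2 crosses 0 in 1 setting, at 0.16, and the differences of Bmp2 spread from 0.57 to 1.27.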

How the data were processed

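Biotin-labelled total RNA from 6 mice was hybridised to Affymetrix arrays, 1 per mouse. The authors deposited 1 linear intensity per probe set (probe summary and array scaling: not given in the sources used here). The table holds no detection calls, and 589 to 680 values per array are exactly 1. Precision is limited by there being 3 arrays per group.

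Names come from a 2016 annotation of the platform: 34945 probe sets have 1 symbol, 932 several and 9160 none; symbols were looked up by gene identifier in GRCm38.p6, which changed 0 of them. The deposited intensities were put on the scale log2(intensity + 1), then quantile normalized. Named probe sets with a mean under the median of such means (6.50) were left out, a filter taken over one at the median of all probe sets (6.10) after the results of that one were seen. This left 17473, and each gene was read from its probe set with the highest mean. Groups were compared by limma 3.58.1 in R 4.3.3 (lmFit, eBayes, 2-sided, Benjamini-Hochberg over 10654 genes), and single values by 2-sided exact permutation tests. Differences are knockout minus control; the pseudocount of 1 makes those of dim genes too small. The procedure was tested on simulated data.

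The text names all 10 genes with every probe set, up to 3 genes of each pathway list with the smallest p beside any past the threshold, and the 3 genes nearest to each of the 3 of smallest p. Others it names are listed partners or markers, given for their place in a list. The 10 genes and the lists were chosen with earlier results of these data known. Sequences come from the RefSeq promoter table, which held 7 of the 10 genes.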

Additional observations from a re-analysis of the deposited data

How the results depend on the processing

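With 3 arrays per group, calls depended on the setting more than differences did. Of 150 values of the 10 genes under 15 other settings, 136 kept their direction and side of the threshold, 6 passed it in addition, 7, all of Bmp6, no longer passed and 1 changed direction: Bmpr2 stood at 0.16 with the mean of its probe sets. Of the pathway genes named, Smad4 turned to 0.022 and Smad1 to 0.12 with that mean, Gdf10 to -0.010 and Hey1 to -0.012 with array weights, Smad7 to -0.12 in the range of -0.12 to 0.34 with 1 array left out, and Smad1 to 0.024 in the range of -0.25 to 0.024. The number of these genes past the threshold, 1 in the reported fit, was 0 with no filter, 2 with the mean of all probe sets, 2 with median centring, 4 with array weights (Smad6, Bmp4, Id2 and Bmp6), 2 when tested by probe set (Id2 and Bmp6), 4 at an adjusted p of 0.1 and 0 to 1 with 1 array left out, the 1 being Id2 without control 74. Of probe sets of these genes, 2 passed and 0 with no filter. Of the pathway lists, 0 genes passed, 1 (Atoh8) with no filter or with the filter at the median of all probe sets, 3 with array weights (Tcf15, Acvr2b and Fstl1; limma adjusted p = 0.0288, 0.0344 and 0.0404) and 0 to 2 with 1 array left out, the 2 being Tcf15 and Bmp5 without control 74 (limma adjusted p = 0.0341 and 0.0443). Over all genes, 258 passed, and 174 did with no filter, 141 with the filter at the 70th percentile, 1131 with array weights and 37 (without knockout 72) to 286 (without control 74) with 1 array left out. Of all calls, 72.9% were higher in the knockout, 61.3% with median centring. A filter at the median of all probe sets, named or not, gave 299. It was run first, and the filter over named probe sets was taken as the reported one after its results were seen. No paired analysis was possible because the animal numbers differ between the groups. No depth is known for arrays, and the dim probe sets below the filter give the least certain values.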
